A study of Homo sapiens with 24 samples.

Results

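The genes described here are the nuclear-encoded subunits of respiratory complexes I to IV. They were picked by symbol: the NDUFA, NDUFB, NDUFC, NDUFS and NDUFV series of complex I, the 4 SDH genes of complex II, the UQCR series of complex III and the COX subunits of complex IV whose symbols carry an A, B or C, with a mean of at least 1 CPM (counts scaled to a common library total) over 24 libraries. Of 26364 genes in the count tables, 65 had such a symbol and 60 passed the mean, which 13113 genes of the tables reached in all. Complex I gave 36 members, 7 core subunits and 29 accessory subunits, complex II gave 4, complex III 9 and complex IV 11. NDUFA4 was counted with complex IV, where the protein is now placed. The members with the lowest means were COX7B2, with a mean of 1.37 CPM and a range of 0 to 6.5 CPM, and UQCRHL, with 7.23 CPM. The 5 symbols below the limit, UQCRBP1, COX7A1, COX6B2, COX8C and COX6A2, had means of 0.314 to 0.0033 CPM.

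Libraries came from T-47D cells, an estrogen receptor positive breast cancer line, with ESR1 left WT or carrying the Y537S or D538G mutation heterozygously at the endogenous locus. Each genotype was represented by 2 clones, and 1 library was made from each clone in each of 12 conditions. All clones received a mimic negative control and, separately, a mimic of miR-301b-3p. The mimic of miR-331-3p went into WT clones (D1 and D4) and Y537S clones (1 and 2), that of miR-181c-5p into WT and D538G clones (A5 and C2), and a let-7f inhibitor, with its own inhibitor negative control, into Y537S clones. All cells were kept in hormone-deprived medium and collected 24 h after transfection at 10 nM. Since a genotype is 2 clones, what belongs to the mutation and what belongs to those clones cannot be told apart, and p-values measure the spread between clones. In libraries of whole cultures, fewer cells that express a gene and less of its RNA per cell cannot be told apart.

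Libraries held 31379962 to 50526442 assigned reads, with a median of 39878595. Reads of the 60 members made up 0.548 to 0.759% of a library, with a median of 0.595%. KRT8, KRT18, KRT19, EPCAM, CDH1, ESR1, GATA3, FOXA1 and XBP1, markers of luminal breast epithelium, were present in all genotypes and summed to 10150 to 14520 CPM. A list of 9 markers of fibroblast, immune, endothelial and mesenchymal cells summed to 47.8 to 84.7 CPM, nearly all of it COL1A1. Without COL1A1 the sum was 0.957 to 2.29 CPM in WT, 0.898 to 2.55 CPM in Y537S and 1.67 to 5.47 CPM in D538G libraries. COL1A2, PTPRC, CD3E, LYZ and PECAM1 averaged under 0.2 CPM.

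The respiratory chain passes electrons from NADH (complex I) and succinate (complex II) through complex III and cytochrome c to oxygen at complex IV, and the proton gradient that complexes I, III and IV build drives ATP synthase. Most subunits are encoded in the nucleus, and their genes are known to share promoter elements for NRF1, ETS family factors such as GABPA, and YY1. Coactivators of the PGC-1 family (PPARGC1A, PPARGC1B and PPRC1) raise many of these genes together. A microRNA loaded into Argonaute pairs through its seed, bases 2 to 8, with sites in the 3′ UTRs of target mRNAs and lowers them.

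The mature sequences of the transfected mimics and of the microRNA that the inhibitor blocks are shown because their seeds decide which member transcripts hold a matching site. They are RefSeq sequences (GRCh38.p14), with the seed in capitals.
miR-301b-3p: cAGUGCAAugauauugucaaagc
miR-331-3p: gCCCCUGGgccuauccuagaa
miR-181c-5p: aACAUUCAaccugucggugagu
let-7f-5p: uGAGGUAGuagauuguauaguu

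Few members hold a site. Of 59 members with an annotated 3′ UTR, 5 had a match to the miR-301b-3p seed (8.47%, against 16.63% of 12033 genes with a mean of at least 1 CPM), 1 to that of miR-331-3p (1.69% against 15.57%), 3 to that of miR-181c-5p (5.08% against 21.91%) and 3 to that of let-7f (5.08% against 11.1%). The UTRs of members were short, with a median of 202 bases against 1357. The sites below are in last exons of 3′ UTRs (GRCh37, the build of the files), with the seed match in capitals. The first 3 come from the members matching the mimics of miR-301b-3p and miR-331-3p, and the last from NDUFA5, the member that fell most under miR-331-3p.
NDUFB5, miR-301b-3p, chr3:179342450-179342456, plus strand: tggggaagtagTTGCACTaggtaatgtga
UQCRQ, miR-301b-3p, chr5:132204115-132204121, plus strand: atggtggagtcTTGCACTaaagtgatgct
NDUFA9, miR-331-3p, chr12:4802677-4802683, plus strand: ccaagactgggCCAGGGGtgagaagggca
NDUFA5, miR-181c-5p, chr7:123178971-123178977, minus strand: aacaatgtttaTGAATGTatcttttttaa

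Promoter windows of 300 bases (250 before and 50 after a transcript start, RefSeq, GRCh38.p14) were given for 51 members. The NRF1 motif GCGCANGCG, searched on both strands, was in 16 of them (31.37%, against 9.02% of 27305 genes and 17.21% of 9332 other protein-coding genes expressed here). The ETS motif CCGGAAG was in 14 (27.45%, against 12.16% and 22.6%), and the YY1 motif AANATGGCG in 16 (31.37%, against 3.85% and 8.38%). At least 1 of the 3 was in 33 windows, and 18 held none of these letters. No match says only that these letters are not in the window. Shown are NDUFS7 and COX8A, called in the most treatments in complexes I and IV, UQCRC1 of complex III, and COX7B2, which reached the CPM limit through D538G cells alone. Capitals mark the motifs.
NDUFS7, chr19:1383657-1383956, plus strand: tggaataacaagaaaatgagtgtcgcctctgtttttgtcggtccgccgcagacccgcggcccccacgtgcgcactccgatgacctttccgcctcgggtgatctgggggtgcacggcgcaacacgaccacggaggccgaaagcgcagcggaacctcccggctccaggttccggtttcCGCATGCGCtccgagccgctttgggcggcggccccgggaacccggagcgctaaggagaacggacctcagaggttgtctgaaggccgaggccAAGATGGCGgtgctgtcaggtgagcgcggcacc
COX8A, chr11:63974370-63974669, plus strand: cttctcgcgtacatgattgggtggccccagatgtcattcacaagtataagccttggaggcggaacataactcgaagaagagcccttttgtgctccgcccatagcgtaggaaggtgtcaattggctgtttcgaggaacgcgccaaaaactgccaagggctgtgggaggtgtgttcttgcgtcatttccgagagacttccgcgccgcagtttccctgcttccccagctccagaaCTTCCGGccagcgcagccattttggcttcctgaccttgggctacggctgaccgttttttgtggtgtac
UQCRC1, chr3:48609597-48609896, minus strand: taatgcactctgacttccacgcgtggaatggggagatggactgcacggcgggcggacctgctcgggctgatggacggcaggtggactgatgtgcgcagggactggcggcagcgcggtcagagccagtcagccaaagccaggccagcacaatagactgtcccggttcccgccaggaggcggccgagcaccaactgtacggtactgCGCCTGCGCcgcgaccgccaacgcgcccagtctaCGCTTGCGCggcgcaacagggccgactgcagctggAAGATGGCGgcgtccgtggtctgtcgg
COX7B2, chr4:46909196-46909495, minus strand: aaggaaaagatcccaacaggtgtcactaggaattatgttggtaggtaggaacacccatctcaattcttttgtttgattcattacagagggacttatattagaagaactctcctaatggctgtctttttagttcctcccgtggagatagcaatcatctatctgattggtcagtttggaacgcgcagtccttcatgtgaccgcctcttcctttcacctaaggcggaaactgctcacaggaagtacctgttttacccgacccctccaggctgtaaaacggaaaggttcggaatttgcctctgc
The NDUFS7 window holds 1 NRF1 and 1 YY1 motif, that of COX8A 1 ETS motif, that of UQCRC1 2 NRF1 motifs and 1 YY1 motif, and that of COX7B2 none.

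To ask how ER genotype relates to respiratory chain transcripts, control-transfected mutant and WT clones were compared. Levels are given from here on as CPM scaled by TMM, the trimmed mean of M-values. The 60 members summed to 5432 and 5484 CPM in the WT control libraries, 6107 and 6137 in D538G and 5986 and 5606 in Y537S. Both D538G sums lay above every WT sum, which ran from 5294 to 5753 CPM over 8 libraries and 4 conditions.

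In D538G cells 22 of 60 members were higher than in WT cells and 2 were lower (quasi-likelihood F test of edgeR, p-values adjusted over all genes tested by the Benjamini-Hochberg method, called at an adjusted p-value under 0.05). This was 36.7% of members called higher, against 20.4% of all genes tested, and 3.33% called lower, against 18.5%. The median log2 fold change of the members was 0.17, against 0.00 for all genes. Members of every complex were among those higher, 3 of 7 complex I core subunits, 7 of 29 accessory subunits, 2 of 4 in complex II, 5 of 9 in complex III and 5 of 11 in complex IV. One of those in complex IV, COX7B2, passed the CPM limit only through D538G cells, so its place among them was fixed by the limit. Without it 21 of 59 members (35.6%) were higher, and 4 of 10 in complex IV. In a list of 16 catalytic and central subunits of the 4 complexes, among them SDHA, UQCRC1 and COX5A, 9 were higher and 0 lower, and only 1 of the 16 list members, SDHC, had a negative estimate. Leaving out the WT control library of clone D1 took the number of members called from 24 to 9, and leaving out that of clone D4 took it to 15.

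Y537S cells shared the same WT controls and gave fewer calls, 7 members higher and 2 lower of 59 tested. These were 11.9% of members, against 16.3% of all genes called higher, and 3.39%, against 12.7% called lower. The median log2 fold change was 0.12, against 0.00 for all genes. The 9 calls became 0 without the WT control library of clone D1, 1 without that of clone D4 and 19 without the control library of Y537S clone 2. Directly compared, Y537S and D538G cells differed in 2 of 60 members, NDUFA12 (log2 fold change 0.40 ± 0.08 SE, adjusted p = 0.0379), an accessory subunit of complex I that was higher in Y537S, and COX7B2, which was lower and is described below without a test. COX7B2 passed the CPM limit only through D538G cells, so its place here was fixed by the limit. Without it 1 of 59 members (1.69%) was higher and 0 were lower, against 3.93% and 2.26% of all genes.

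SDHA, the flavoprotein of complex II that oxidises succinate, was at 202 and 208 CPM in the WT control libraries, 276 and 287 in D538G and 286 and 243 in Y537S. The mutant and WT libraries did not overlap. It was higher in both mutants, with a log2 fold change of 0.45 ± 0.07 (SE, n = 2 and 2 libraries, adjusted p = 0.000769) in D538G and 0.39 ± 0.09 (adjusted p = 0.0195) in Y537S. Its partner SDHB, the iron-sulfur subunit, was also called higher in both, with log2 fold changes of 0.27 ± 0.08 and 0.34 ± 0.09. SDHC, a membrane anchor of the same complex, was lower in Y537S (log2 fold change -0.30 ± 0.07, adjusted p = 0.0186), at 154 and 155 CPM against 193 and 193, while the inhibitor control libraries of Y537S cells held 171 and 185 CPM.

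COX5A, a structural subunit of complex IV, gave the largest called increase over WT in Y537S cells. It was at 55.4 and 58.1 CPM in WT, 87.4 and 89.7 in D538G and 99.4 and 74.8 in Y537S, with no overlap. The log2 fold changes were 0.63 ± 0.08 (adjusted p = 0.000292) in D538G and 0.63 ± 0.13 (adjusted p = 0.0125) in Y537S. UQCRC1, a core protein of complex III, was at 111 and 130 CPM in WT, 153 and 156 in D538G and 148 and 138 in Y537S. It was called in D538G (log2 fold change 0.35 ± 0.09, adjusted p = 0.0112) and not in Y537S (0.27 ± 0.10, adjusted p = 0.0759). NDUFB9, an accessory subunit of complex I, gave the next largest increase in D538G after COX5A among members well above the CPM limit, with a log2 fold change of 0.53 ± 0.08 (adjusted p = 0.000681).

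NDUFA4 went the other way. It was at 265 and 247 CPM in WT, 224 and 209 in D538G and 214 and 199 in Y537S, so every mutant library given the mimic control lay below both WT libraries. The log2 fold change was -0.26 ± 0.07 in D538G (adjusted p = 0.0198) and -0.29 ± 0.08 in Y537S (adjusted p = 0.0308). In libraries given the miR-301b-3p mimic the estimates kept their sign but were not called, at -0.10 (adjusted p = 0.453) in D538G and -0.26 (adjusted p = 0.0841) in Y537S. The Y537S libraries given the inhibitor control, which entered no genotype comparison, held 249 and 250 CPM, within the WT range. COX6A1, another complex IV subunit, was also lower in D538G (-0.22 ± 0.07, adjusted p = 0.0365), and gave -0.10 (adjusted p = 0.459) in the miR-301b-3p libraries.

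**Figure D1:**
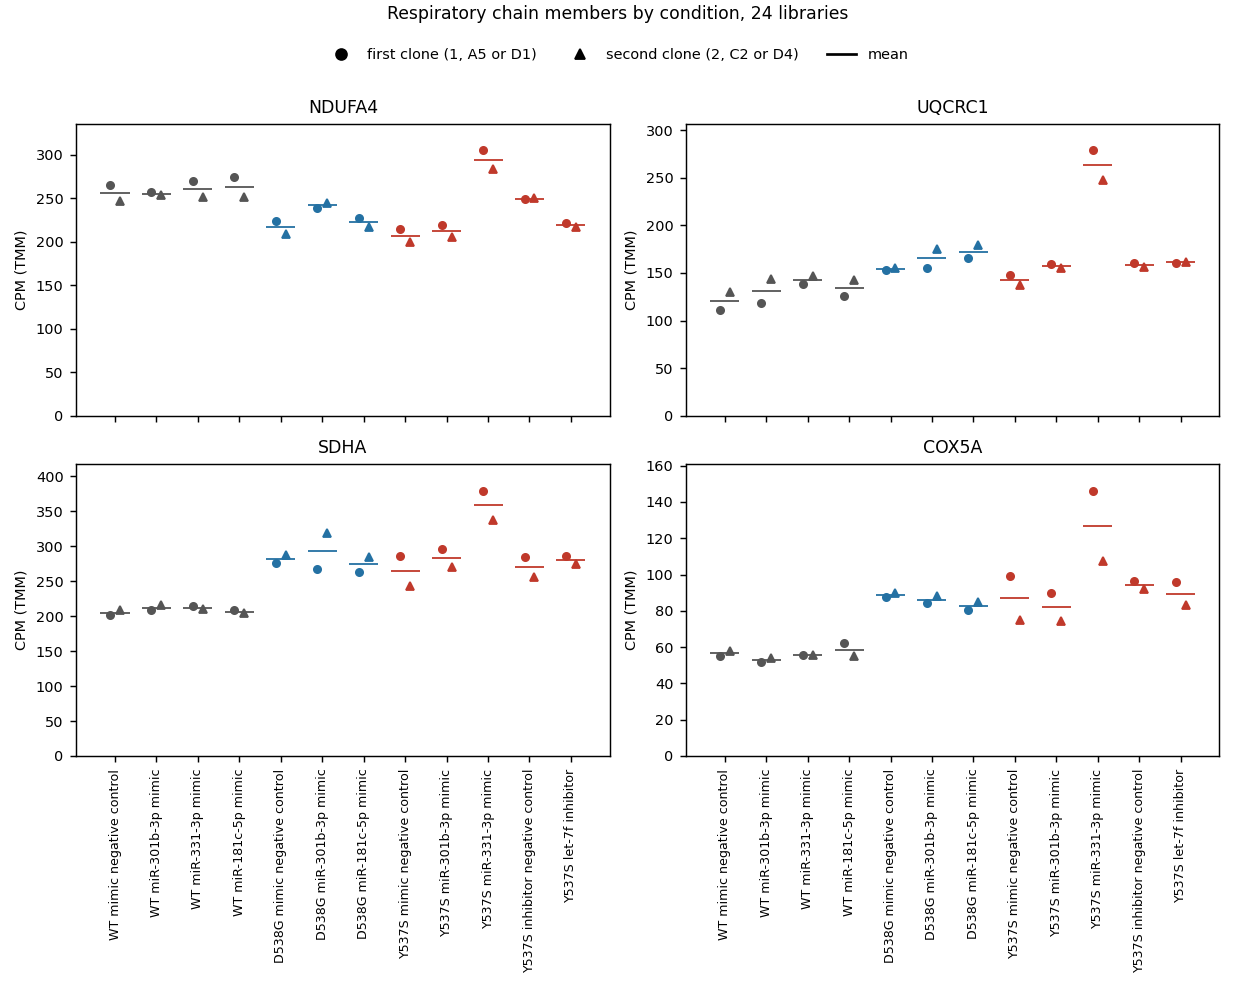
CPM (TMM-scaled, linear axis from 0) of NDUFA4, UQCRC1, SDHA and COX5A in each of 24 libraries, by condition, with circles and triangles for the 2 clones of a genotype, horizontal lines for their mean, and WT in grey, D538G in blue and Y537S in red. SDHA and COX5A lie higher in every mutant library than in any WT library, NDUFA4 lies lower in all 6 D538G libraries than in the 8 WT libraries, and all 4 are highest in the Y537S miR-331-3p libraries.

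The same genotypes were also set side by side over all the conditions they share. Over the control, miR-301b-3p and miR-181c-5p conditions, 19 of 60 members (31.7%) were higher in each of 6 D538G libraries than in each of 6 WT libraries, against 17.3% of 13113 genes, and 2 (3.3%) were lower, against 13.2%. Without COX7B2 18 of 59 (30.5%) were higher. The 19 included SDHA, SDHB, UQCRC1, UQCRC2, UQCRFS1 and NDUFS1, and those lower were NDUFA4 and NDUFB4. UQCRC2 ran from 282 to 311 CPM (median 299) in D538G and from 206 to 231 CPM (median 224) in WT. Over the control, miR-301b-3p and miR-331-3p conditions, 10 members (16.7%) were higher in every Y537S library than in every WT library, against 14.4% of genes. Without COX7B2 9 of 59 (15.3%) were higher, and 0 were lower, against 11.1%. The Y537S libraries here include those with the miR-331-3p mimic, which raised 39 of 60 members, so the 0 is not free of that treatment. NDUFA4 was at 199 to 220 CPM in the Y537S control and miR-301b-3p libraries, below the WT minimum of 247 CPM. SDHC was there at 133 to 155 CPM, below the WT minimum of 161 CPM. With miR-331-3p NDUFA4 reached 305 and 283 CPM and SDHC 248 and 238 CPM, so both count as overlapping. Libraries of 1 clone are not independent, so these counts rest on 2 clones against 2.

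COX7B2, an isoform of the complex IV subunit COX7B known mainly from testis, entered the set through its level in D538G cells. WT libraries held 0 to 4 reads of it, Y537S libraries 8 to 32 and D538G libraries 98 to 271, so the 3 genotypes did not overlap in any condition. In the controls, 324 reads in D538G stood against 1 read in WT, a ratio of 322 with an exact 95% interval of 57.5 to 12800 that covers counting error only, and 29 reads in Y537S gave a ratio of 25.2 (4.18 to 1030). Over all conditions, the ratio to WT was 97.7 (58.0 to 179) for D538G, with 1070 reads against 14, and 9.07 (5.27 to 16.9) for Y537S, with 186 reads. These levels are a description, with no test, because the gene reached the mean of 1 CPM only through D538G. In D538G it stayed at 2.61 to 6.53 CPM, and COX7B, the common isoform, was at 75.7 and 78.5 CPM in the D538G controls.

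Related lists were counted in the same tests, where 20.4% of all genes were higher and 18.5% lower in D538G, and 16.3% and 12.7% in Y537S. Of 18 genes of ATP synthase 9 were higher and 1 lower in D538G than in WT (50.0% and 5.56%), and 6 were higher in Y537S (33.3%). ATP5G1, which encodes subunit c of the rotor, gave log2 fold changes of 1.09 ± 0.09 and 0.73 ± 0.10. CYC1, the cytochrome c1 of complex III that the symbol rule leaves out, gave 0.64 ± 0.07 and 0.55 ± 0.10. Of 13 tricarboxylic acid cycle genes 5 were higher in each mutant (38.5%), led by IDH3A of isocitrate dehydrogenase (1.14 ± 0.15 and 1.17 ± 0.11), and 1 was lower in Y537S. Of 42 assembly factors tested 10 were higher and 3 lower in D538G (23.8% and 7.14%), and 6 higher and 1 lower in Y537S (14.3% and 2.38%), so the share higher lay near that of all genes. Of 15 regulators of mitochondrial gene expression 8 were higher in D538G (53.3%) and 5 in Y537S (33.3%), and 0 were lower. These included MYC (1.36 ± 0.14 and 1.36 ± 0.15) and the coactivator PPARGC1A (2.24 ± 0.20 and 1.14 ± 0.36). All of these values are log2 fold changes, in D538G and then in Y537S.

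To learn which miRNAs change these genes, each mimic or inhibitor was compared with its negative control in clones of the same genotype. Comparisons within a genotype share the mimic control libraries, so they are not independent of each other. The miR-331-3p mimic in Y537S cells gave the most member calls of the 8 treatments. It raised 39 of 60 members and lowered 3, or 65.0% of members called higher, against 17.2% of all genes tested, and 5.0% called lower, against 15.8%. The median log2 fold change was 0.52 for the members and -0.01 for all genes. Members summed to 8472 and 7689 CPM after the mimic, against 5986 and 5606 CPM in the controls of the same clones.

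Members of every complex were among those called higher, to be read against 17.2% of all genes tested. The mimic raised 5 of 7 complex I core subunits, 18 of 29 accessory subunits, 2 of 4 genes of complex II, 7 of 9 of complex III and 7 of 11 of complex IV. It lowered 2 accessory subunits of complex I, NDUFA5 and NDUFC2, and 1 subunit of complex III, UQCRB. Of the 16 catalytic and central subunits 10 rose and 0 fell. The median log2 fold changes were 0.60 in the complex I core, 0.43 in its accessory subunits, 0.26 in complex II, 0.65 in complex III and 0.56 in complex IV.

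NDUFS7, the core subunit that holds the last iron-sulfur cluster before ubiquinone, was at 21.6 and 20.0 CPM in the controls and 48.5 and 46.5 CPM after the mimic. Its log2 fold change, 1.21 ± 0.11 (adjusted p = 0.00617), was the largest increase among the members. NDUFB7, an accessory subunit on the intermembrane space side of complex I, went from 28.0 and 22.4 to 60.4 and 52.6 CPM (1.18 ± 0.14, adjusted p = 0.0067). COX8A, a small membrane subunit of complex IV, went from 185 and 165 to 425 and 356 CPM (1.17 ± 0.12, adjusted p = 0.00618). In all 3 the libraries with and without the mimic were far apart.

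The genes named for the complexes rose as well. UQCRC1 went from 148 and 138 to 279 and 248 CPM (log2 fold change 0.90 ± 0.10, adjusted p = 0.00627), NDUFA4 from 214 and 199 to 305 and 283 CPM (0.53 ± 0.09, adjusted p = 0.012) and SDHA from 286 and 243 to 379 and 338 CPM (0.45 ± 0.11, adjusted p = 0.0312). With a correction for GC content SDHA was no longer called (0.30, adjusted p = 0.118). SDHC of complex II rose by a log2 fold change of 0.67.

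The 3 members that fell were 2 of complex I and 1 of complex III. NDUFA5, an accessory subunit of the complex I matrix arm, was at 74.2 and 66.9 CPM in the controls and 33.6 and 34.3 CPM after the mimic (log2 fold change -1.04 ± 0.10, adjusted p = 0.00617), and NDUFC2, a subunit of the membrane arm, went from 27.6 and 25.9 to 14.02 and 14.56 CPM (-0.89 ± 0.13, adjusted p = 0.00813). UQCRB, the ubiquinone-binding protein of complex III, gave -0.30 ± 0.09 (adjusted p = 0.0483) and was not called by DESeq2 (adjusted p = 0.0619). With the GC correction NDUFA5 gave -0.38 (adjusted p = 0.0616) and UQCRB turned to 0.09, so neither was called. None of these genes holds a match to the miR-331-3p seed in its annotated 3′ UTR. NDUFA9, the single member that does (sequence above), rose by a log2 fold change of 0.60.

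**Figure D2:**
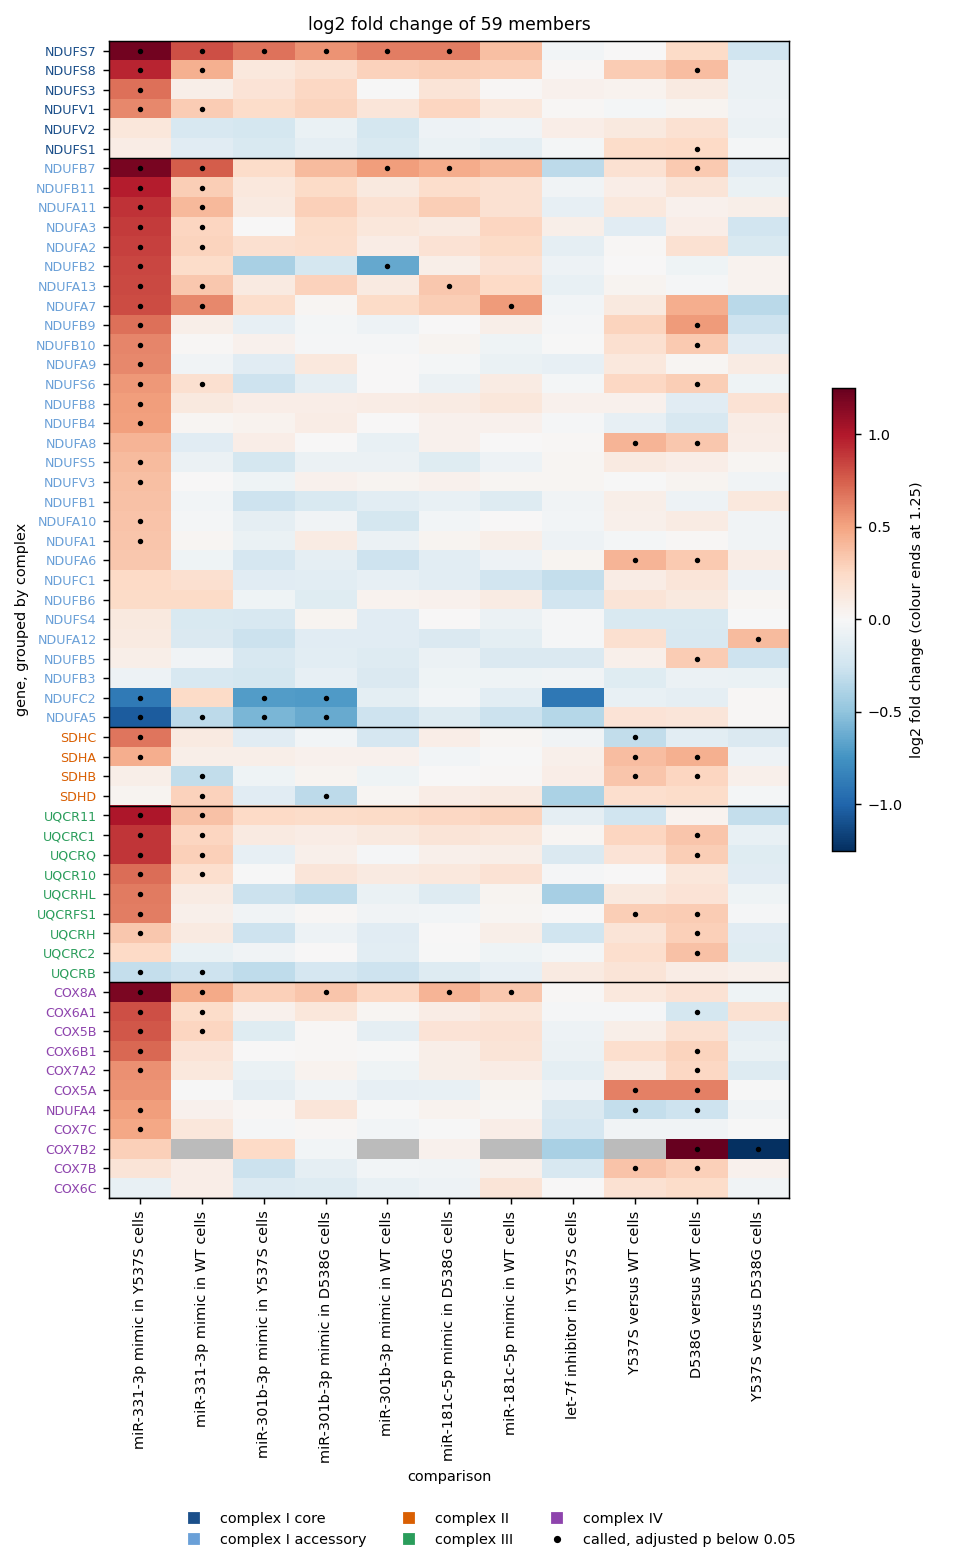
Log2 fold change (colour, red higher and blue lower) of 59 members, in rows grouped by complex, in 8 treatment and 3 genotype comparisons, in columns, with a dot where the adjusted p-value was below 0.05 and grey where a gene was not tested. The first column, miR-331-3p in Y537S cells, is red for 54 of 59 members drawn, while NDUFA5 and NDUFC2 are blue in it and in the miR-301b-3p columns of both mutants.

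Members have short transcripts, with a median of 751 bases against 3288 bases for genes with a mean of at least 1 CPM. Among 861 other genes with transcripts under 1000 bases, 34.0% were called higher with miR-331-3p in Y537S cells and 10.1% lower, with a median log2 fold change of 0.34. Of the 36 members this short 27 rose and 0 fell, and of the 24 longer members 12 rose and 3 fell. After a correction for transcript length 39 members were called higher and 2 lower, and after one for GC content 35 and 1. The shares of all genes called after these corrections are not given, so these counts have no background. The TMM factors of the miR-331-3p libraries, 0.896 and 0.928, were below those of the controls, 0.993 and 1.03, while unscaled the members' share of reads was 0.759 and 0.713%, against 0.594 and 0.576%. KRT8, KRT18, KRT19 and XBP1 of the luminal markers rose with the mimic, and what RNA composition adds to the members' change was not tested.

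In WT cells the same mimic raised 19 of 59 members tested and lowered 3, which is 32.2%, against 14.2% of all genes, and 5.08%, against 10.6%. The median log2 fold change was 0.10, against 0.00 for all genes. By complex, 3 of 7 core and 8 of 29 accessory subunits of complex I rose, and 1 of 4, 4 of 9 and 3 of 10 genes in complexes II, III and IV. The count of 22 members called fell when the library of clone D1 or that of clone D4 with the mimic was left out. This leaves 1 library with the mimic, so the weight of a clone and the loss of a library cannot be told apart. With the length correction the split was 11 higher and 8 lower.

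NDUFS7 again rose most, from 19.0 and 23.0 to 36.6 and 35.7 CPM (log2 fold change 0.81 ± 0.11, adjusted p = 0.000566), followed by NDUFB7 (0.76 ± 0.10, adjusted p = 0.000675) and NDUFA7, an accessory subunit of complex I (0.60 ± 0.12, adjusted p = 0.00389). The members that fell were NDUFA5 (-0.33 ± 0.08, adjusted p = 0.00936), SDHB (-0.30 ± 0.07, adjusted p = 0.0105) and UQCRB (-0.26 ± 0.06, adjusted p = 0.00954). UQCRC1 rose by 0.27 ± 0.08, from 111 and 130 to 138 and 147 CPM (adjusted p = 0.0302). SDHA was at 214 and 210 CPM against 202 and 208, and NDUFA4 at 269 and 252 against 265 and 247, and neither was called.

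The difference between the genotypes was tested directly as an interaction, the log2 fold change in Y537S minus that in WT. It was positive and called for 17 of 60 members and negative and called for 2, which is 28.3%, against 3.47% of all genes, and 3.33%, against 6.47%. The median difference was 0.39 for the members and -0.03 for all genes. With the clone as a block, which compares each clone with its own control, 46 were positive and 3 negative, against 16.7% and 17.4% of genes. Without 1 library the 19 calls ranged from 1 to 34. They fell to 4 without the WT control library of clone D1 and to 1 without that of clone D4 or either WT miR-331-3p library. They were 11 and 5 without the Y537S control of clone 1 or 2, and 8 and 34 without the Y537S miR-331-3p library of clone 1 or 2.

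NDUFC2 had the lowest p-value of the members in this test. The mimic took it from 27.6 and 25.9 to 14.02 and 14.56 CPM in Y537S and from 31.0 and 26.6 to 31.9 and 34.99 CPM in WT, a difference of -1.14 ± 0.16 (log2, adjusted p = 0.00528). NDUFA5 fell in both genotypes, and by more in Y537S, with a difference of -0.72 ± 0.13 (adjusted p = 0.0134). SDHC differed by 0.54 ± 0.09 (adjusted p = 0.0111) and COX6A1 by 0.57 ± 0.10 (adjusted p = 0.0141). UQCRC1 (0.61 ± 0.14, adjusted p = 0.0313) and NDUFA4 (0.46 ± 0.11, adjusted p = 0.0372) were called, and SDHA (0.37 ± 0.13, adjusted p = 0.109) was not, although it was with the clone as a block (adjusted p = 0.00018). With the block NDUFC2 was also called higher with the mimic in WT cells (adjusted p = 0.0238).

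**Figure D3:**
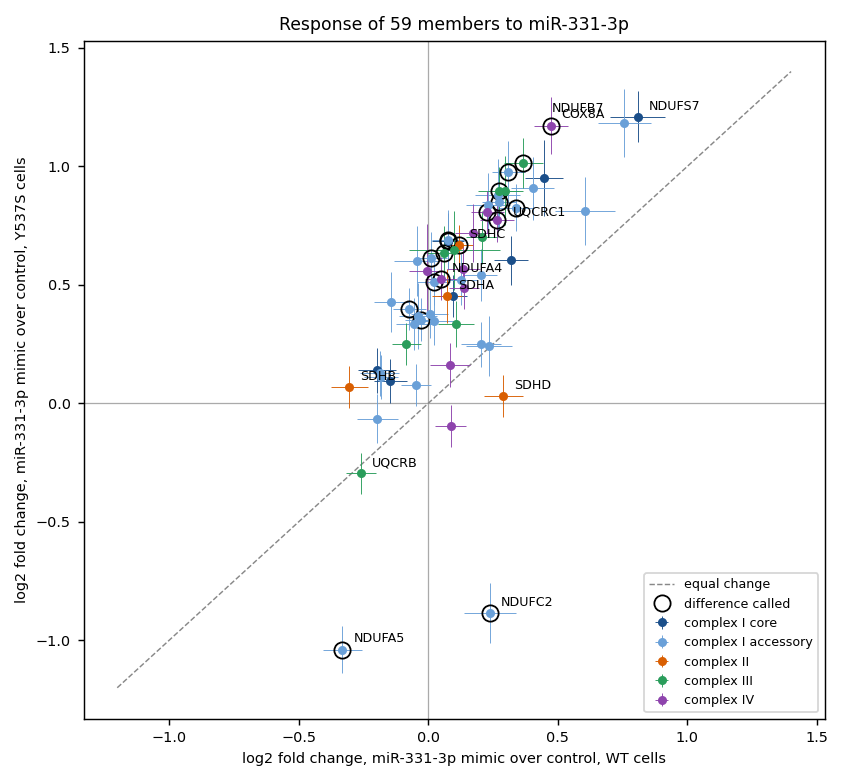
Log2 fold change with the miR-331-3p mimic in Y537S cells (vertical axis) against that in WT cells (horizontal axis) for 59 members coloured by complex, with bars of 1 SE, a dashed line of equal change and black rings where the difference was called. Most points lie above the dashed line, and NDUFA5 and NDUFC2 lie far below it.

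The same lists under miR-331-3p in Y537S cells are read against 17.2% of all genes higher and 15.8% lower. Of 18 ATP synthase genes 13 rose (72.2%) and 0 fell, with a median log2 fold change of 0.51, led by ATP5D of the rotor stalk (1.17 ± 0.15) and ATP5G2 of the rotor ring (0.98 ± 0.09). In the tricarboxylic acid cycle 7 of 13 genes rose (53.8%), such as MDH2, malate dehydrogenase (0.75 ± 0.11), and 1 fell, DLD (-0.39 ± 0.09). Of 42 assembly factors 11 rose (26.2%), including NDUFAF3 for complex I (1.095 ± 0.099) and UQCC3 for complex III (1.01 ± 0.16), and LYRM7, a complex III factor, fell (-0.80 ± 0.12). Of 5 subunits or carriers outside the symbol rule 4 rose, with CYC1 at 0.81 ± 0.16, and CYCS, cytochrome c itself, fell (-0.56 ± 0.09). Of 14 regulators tested, MYC (0.43 ± 0.11) and POLRMT, the mitochondrial RNA polymerase (0.59 ± 0.14), rose, and TFAM, the mitochondrial transcription factor (-0.37 ± 0.11), and GABPB2 (-0.71 ± 0.14) fell, which is 14.3% each way and below the shares of all genes. In WT cells, against 14.2% of all genes higher and 10.6% lower, the mimic raised 4 and lowered 1 of the ATP synthase genes (22.2% and 5.56%), raised 2 and lowered 3 assembly factors (4.76% and 7.14%), raised 0 and lowered 3 cycle genes (23.1%), and raised 3 and lowered 2 of 15 regulators (20.0% and 13.3%). Of the 34 members raised that have a promoter window, 24 held at least 1 of the 3 motifs, and of the 17 other members with a window, 9 did.

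The miR-301b-3p mimic moved few members in any genotype. In Y537S cells 1 rose and 2 fell of 60 (1.67%, against 1.23% of genes, and 3.33%, against 2.34%), in D538G cells 2 rose and 3 fell of 60 (3.33%, against 5.29%, and 5.0%, against 6.49%), and in WT cells 2 rose and 1 fell of 59 (3.39%, against 4.63%, and 1.69%, against 3.87%). The median log2 fold changes of the members were -0.05, 0.01 and -0.04. The clone as a block gave more calls, 7 higher and 18 lower in Y537S (background 18.4% and 20.0%), 13 and 4 in D538G (16.4% and 16.9%) and 6 and 9 in WT (14% and 14.2%). In Y537S the 3 calls were lost whichever library was left out and with the GC correction. In D538G the 5 calls became 3 without the control library of clone C2 and 1 without its miR-301b-3p library, and the GC correction gave 1 higher and 0 lower. In WT the 3 calls became 1 without the control library of clone D1 and 7 without the miR-301b-3p library of that clone, and 1 with the GC correction.

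NDUFS7 was called higher with miR-301b-3p in all 3 genotypes, which have separate controls. Its levels with the mimic were 35.3 and 32.2 CPM in Y537S, 35.2 and 38.7 in D538G and 31.0 and 34.4 in WT, against 21.6 and 20.0, 26.4 and 23.7, and 19.0 and 23.0 CPM in the controls. The log2 fold changes were 0.68 ± 0.12 (adjusted p = 0.042), 0.56 ± 0.11 (adjusted p = 0.0148) and 0.64 ± 0.12 (adjusted p = 0.0215). The Y537S call of NDUFS7 is among those lost whichever library was left out and with the GC correction. COX8A rose in D538G (0.35 ± 0.09, adjusted p = 0.0352) and NDUFB7 in WT (0.52 ± 0.12, adjusted p = 0.0388).

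NDUFA5 and NDUFC2 fell with miR-301b-3p in both mutants. NDUFA5 was at 49.4 and 47.2 CPM in Y537S and 46.7 and 45.2 in D538G, against 74.2 and 66.9 and 68.3 and 73.7 in the controls, with log2 fold changes of -0.57 ± 0.09 (adjusted p = 0.0386) and -0.63 ± 0.09 (adjusted p = 0.00548). NDUFC2 gave -0.70 ± 0.12 (adjusted p = 0.0416) and -0.71 ± 0.13 (adjusted p = 0.012). With the GC correction neither gene was called in either mutant. In WT NDUFA5 was also lower in both clones, at 64.3 CPM in D1 and 41.7 CPM in D4 after the mimic, against 67.1 and 59.75, and was not called. For NDUFC2 the WT clones went apart, at 32.7 CPM in clone D1 and 20.0 CPM in clone D4 after the mimic, against 31.0 and 26.6. SDHD, a membrane anchor of complex II, fell in D538G (-0.33 ± 0.08, adjusted p = 0.0332), and NDUFB2, an accessory subunit of complex I, fell in WT (-0.64 ± 0.16, adjusted p = 0.0418). None of these 4 genes is among the members with a seed match for miR-301b-3p. Those members are NDUFA10, NDUFB5, NDUFS1, UQCRB and UQCRQ, and edgeR without the block called none of them with this mimic in any genotype. With the clone as a block, UQCRB was called lower in all 3 genotypes, NDUFB5 and NDUFS1 in Y537S and WT, and NDUFA10 in WT. This is 3 of these 5 members in Y537S, 1 in D538G and 4 in WT, and 0 were called higher. With the block, 20.0% of all genes were called lower in Y537S, 16.9% in D538G and 14.2% in WT. Of all members, 30.0%, 6.67% and 15.3% were called lower, in the same order.

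Tested as an interaction, the response to miR-301b-3p was not called different from WT for any member in Y537S or D538G (edgeR, 0 of 60 in both, with 0 members at an unadjusted p under 0.05 and 0 called by DESeq2). Over all genes 1 was called in each test, or 0.00632% and 0.0064%. Outside the members, CYCS fell in Y537S (-0.74 ± 0.10) and D538G (-0.66 ± 0.09), and DLD, the E3 subunit of 2-oxoglutarate and pyruvate dehydrogenase, fell in all 3 genotypes by log2 fold changes of -0.71 ± 0.09 in Y537S, -0.56 ± 0.10 in D538G and -0.66 ± 0.09 in WT.

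The miR-181c-5p mimic raised 4 of 60 members and lowered 0 in D538G cells (6.67%, against 5.58% of genes, and 0%, against 3.95%), and raised 2 of 59 and lowered 0 in WT cells (3.39%, against 8.1%, and 0%, against 8.28%). Median log2 fold changes were 0.04 and 0.06. With the clone as a block there were 13 higher and 2 lower in D538G (background 15.6% and 13.6%) and 10 and 3 in WT (14.5% and 13.4%). Without the D538G library of clone C2 with the mimic the 4 calls became 1, without the control library of that clone 3, and with the GC correction 0. In WT the 2 calls became 0 without the control library of clone D1, 1 without that of clone D4 and 6 without the miR-181c-5p library of clone D1. The difference between the 2 genotypes was not called for any member (edgeR, 0 at an unadjusted p under 0.05, 0 called by DESeq2, background 0.00646%).

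COX8A was called in both genotypes. It was at 234 and 261 CPM in D538G with the mimic against 188 and 181, and at 201 and 213 CPM in WT against 156 and 168, with log2 fold changes of 0.43 ± 0.08 (adjusted p = 0.0121) and 0.34 ± 0.07 (adjusted p = 0.0134). The others were NDUFS7 (0.64 ± 0.10, adjusted p = 0.00782), NDUFB7 (0.47 ± 0.10, adjusted p = 0.0204) and NDUFA13 in D538G, and NDUFA7 in WT (0.53 ± 0.13, adjusted p = 0.0202). NDUFA5, whose 3′ UTR holds a pair of miR-181c-5p seed matches (1 printed above), gave -0.16 in D538G and -0.27 in WT, not called (adjusted p = 0.0797 in WT). With the clone as a block in edgeR it was called lower in WT (adjusted p = 0.0185) and not in D538G (adjusted p = 0.0802).

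The let-7f inhibitor, set against the inhibitor control in Y537S cells, gave no calls in edgeR, 0 of 60 members and 0% of 15140 genes. At an unadjusted p under 0.05 there were 10 members and 786 genes (5.19%), and the median log2 fold change was -0.04. DESeq2 called 1 member, NDUFC2, which was at 20.3 and 15.98 CPM with the inhibitor against 36.0 and 31.7 CPM, without overlap (log2 fold change -0.89 ± 0.15, adjusted p = 0.751 in edgeR). With the clone as a block 0 members were higher and 12 lower, against 4.31% and 6.88% of genes, among them NDUFC2, NDUFA4 (-0.18) and SDHD (-0.40). Of the members with a let-7f seed match, NDUFA4 and NDUFS1 (-0.03) were not called by edgeR without the block, and UQCRB gave 0.11 ± 0.07 (adjusted p = 1.0).

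**Figure D4:**
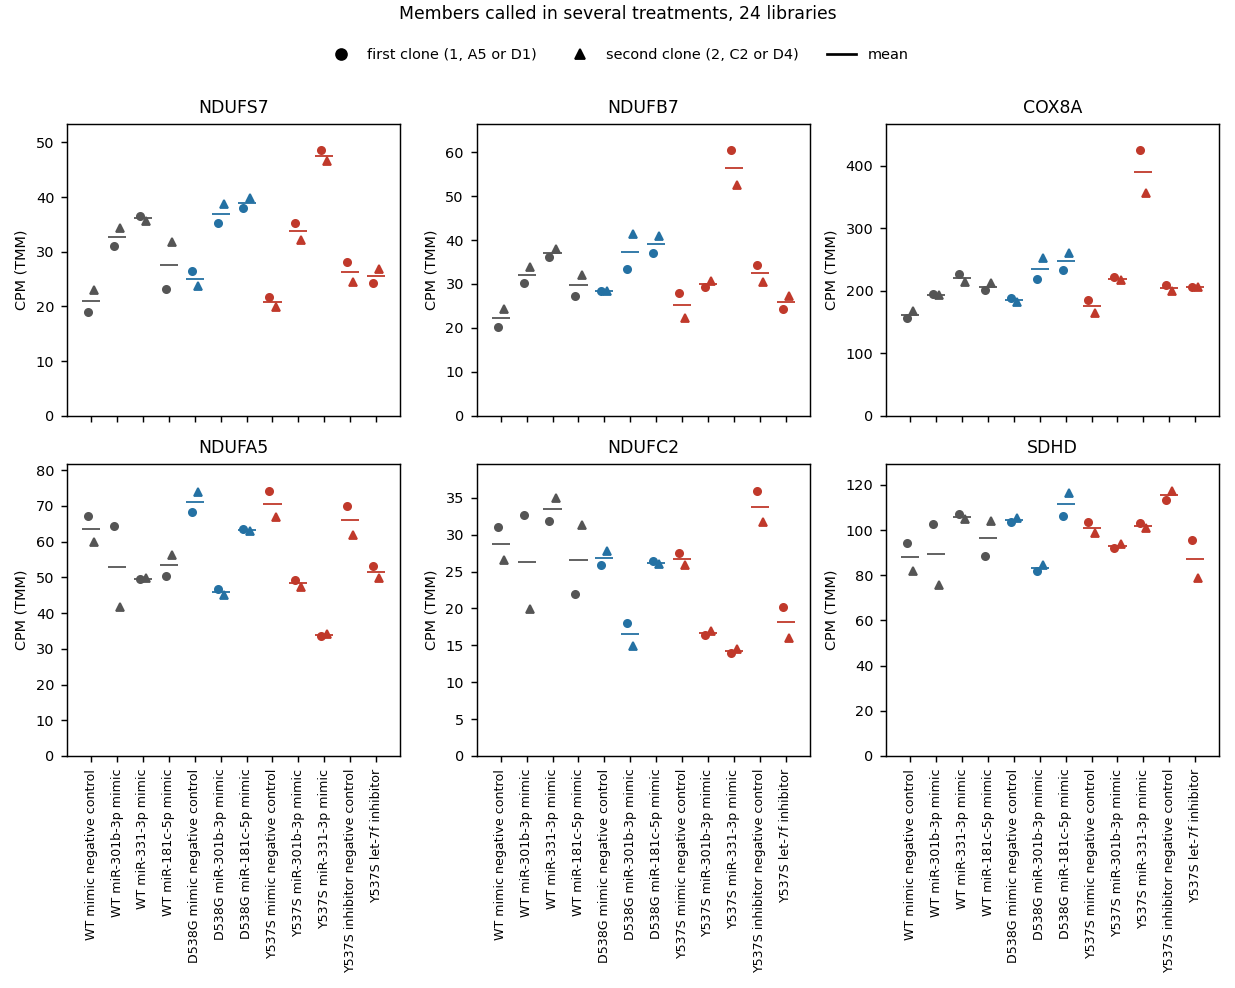
CPM (TMM-scaled, linear axes from 0) of NDUFS7, NDUFB7, COX8A, NDUFA5, NDUFC2 and SDHD in each of 24 libraries by condition, with circles and triangles for the 2 clones, lines for their mean, and WT in grey, D538G in blue and Y537S in red. NDUFS7 lies above its control with each mimic in each genotype, and NDUFA5 and NDUFC2 are lowest in the Y537S miR-331-3p libraries.

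Across the 8 treatment comparisons NDUFS7 was called in 6, always higher, COX8A in 5, always higher, NDUFB7 in 4, always higher, and NDUFA5 in 4 and NDUFC2 in 3, always lower. In complex II SDHD was called most often, in 2 treatments with opposite signs. In complex III UQCR10, UQCR11, UQCRC1 and UQCRQ, all higher, and UQCRB, lower, were called in 2 treatments each. These comparisons share control libraries within a genotype. The transcripts of these members also differ in GC content, with a median of 47.36% over all members. It was 66.89% for NDUFS7, 64.86% for NDUFB7, 57.89% for COX8A, 44.05% for NDUFC2 and 34.59% for NDUFA5. Some of these calls were lost with the GC correction, as given above, and how GC content bears on their recurrence was not tested. Counting may not be clean for every member. The exons of 24 members overlap those of another annotated gene on either strand (GENCODE, GRCh37), which for NDUFC2 is the readthrough gene NDUFC2-KCTD14, over 19.7% of its exon bases, for NDUFS7 antisense RNAs and for COX8A a long noncoding RNA on the same strand, over 35.4%. UQCRH and UQCRHL are near-identical copies, so reads may be split between them.

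**Figure D5:**
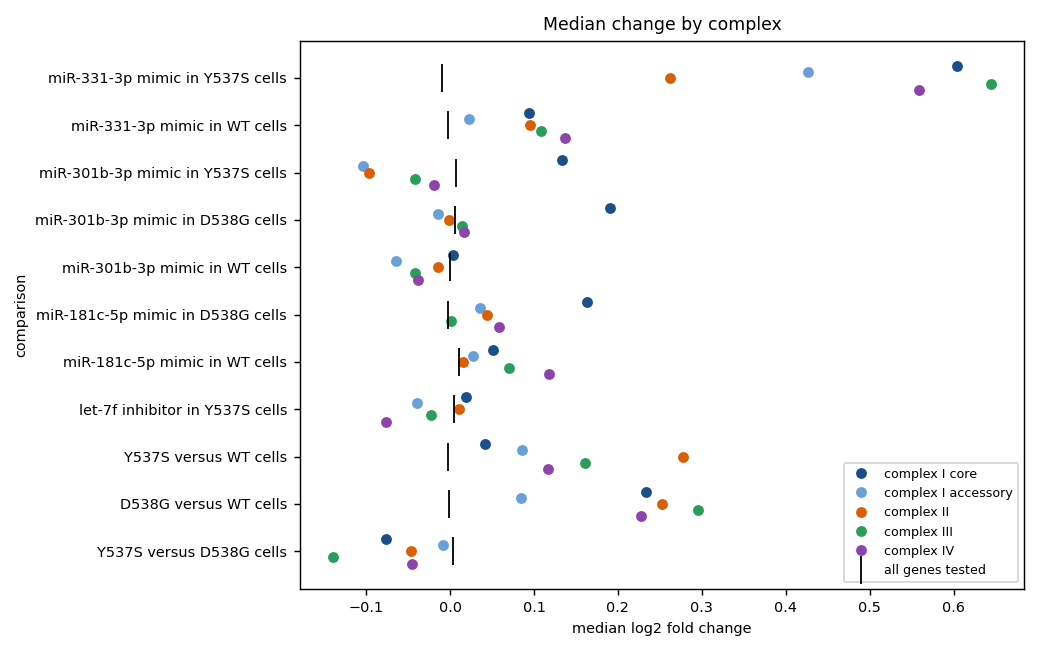
Median log2 fold change of the members of each complex (coloured points) and of all genes tested (black ticks) in 8 treatment and 3 genotype comparisons. All 5 groups lie right of the tick for miR-331-3p in Y537S cells, from 0.26 to 0.65, and for D538G versus WT cells, from 0.08 to 0.30. They also do so for Y537S versus WT cells (0.042 to 0.277) and miR-331-3p in WT cells (0.022 to 0.137). The same holds for miR-181c-5p in D538G cells (0.001 to 0.163) and in WT cells (0.015 to 0.118).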

How the data were processed

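RNA was sequenced from 24 libraries of T-47D clones in 12 conditions. Per the study's methods, libraries were made from poly-A RNA and run on a NovaSeq, and HISAT2 placed the reads on hg19. The authors deposited raw whole-number counts per gene, made with featureCounts. Versions and the strand setting were not given in the sources used here. Mutant, WT and clone came from the sample titles and column headings. Counts were tested with edgeR 4.0.16 (R 4.3.3, limma 3.58.1), with TMM scaling, filterByExpr and the quasi-likelihood test, using only the libraries of a comparison and Benjamini-Hochberg adjustment over all genes tested, and called at an adjusted p under 0.05. SE is the log2 fold change divided by the root of F. DESeq2 1.42.0 was an alternative. The scripts were checked on simulated counts. Tables and figures used Python 3.11.15, pandas 2.3.3, numpy 2.4.6 and matplotlib 3.10.9.

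Depth was 31379962 to 50526442 reads per library, and intervals cover counting error only. Same-clone libraries deviated together (correlations of 0.308 to 0.738 over 13113 genes), so the clone as a block was the paired alternative. Others were size factors, no low-count filter, GC and length corrections, other samples in the fit and leaving out libraries. A replicate block with length correction was added after seeing the data. The members and lists were chosen with earlier results of these data known. Genes named were NDUFA4, UQCRC1 and SDHA, and the members with the largest called changes in a comparison. They also included the most read and most often called member of a complex, the members with the lowest means and the leading genes of other lists. A list of 16 catalytic and central subunits and the smallest p-values of the interactions completed them. Symbols of mitochondrially encoded subunits, such as MT-CO1, were not in the count tables. SDHB, NDUFA9, NDUFB5, UQCRQ, NDUFB4 and the sites and promoters shown were singled out after values were seen. Gene positions came from GENCODE on GRCh37, which all 60 members matched. The values of 1 member entered all counts and are not reported here by name.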

Additional observations from a re-analysis of the deposited data

Results flagged for a closer look

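The response to the miR-331-3p mimic differed between Y537S and WT cells for 19 members by a test of the difference itself (edgeR's quasi-likelihood interaction test, 2 clones in each group). Of 60 members, 28.3% were called with a positive difference, against 3.47% of all genes, and 3.33% with a negative one, against 6.47%. Among members named, the difference of log2 fold changes, Y537S minus WT, was 0.69 for COX8A, 0.66 for NDUFB11, 0.63 for UQCR11, 0.61 for UQCRC1, 0.57 for COX6A1, 0.54 for SDHC and 0.46 for NDUFA4. It was -0.72 for NDUFA5 and -1.14 for NDUFC2. These 19 calls ranged from 1 to 34 when 1 library was left out.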

How the results depend on the processing

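Counts below are members called in either direction. Shares of all genes called are given above for plain edgeR and the block only, so other settings have no background here. For miR-331-3p in Y537S cells the 42 calls ranged from 28 to 43 when 1 library was left out, and no other setting moved them by over 1.5 times, nor the 22 in WT cells (7 to 19 without 1 library) or the 24 in D538G versus WT cells (9 to 23). With the replicate block, calls went from 3 to 25 for miR-301b-3p in Y537S, 0 to 12 for let-7f, 5 to 17 for miR-301b-3p in D538G, 4 to 15 for miR-181c-5p in D538G, 3 to 15 for miR-301b-3p in WT, 2 to 13 for miR-181c-5p in WT and 19 to 49 for the miR-331-3p response. In the same order, the block gave 17, 16, 11, 16, 6, 12 and 48 with a GC correction and 24, 14, 20, 13, 15, 5 and 51 with a length correction. The GC correction alone gave 0 for miR-301b-3p in Y537S, 1 in D538G and 1 in WT, 0 for miR-181c-5p in D538G and 4 in WT, and 11 for the miR-331-3p response. DESeq2 gave 1 for let-7f, 8 for miR-301b-3p in D538G and 5 in WT, and 32 for the miR-331-3p response. Without the low-count filter there were 8 for miR-301b-3p in D538G, 6 in WT, 7 for miR-181c-5p in D538G and 6 in WT. Fitting all conditions of the genotype gave 5 for miR-301b-3p and 5 for miR-181c-5p in WT. Y537S versus WT gave 16 with a length correction and 5 in miR-301b-3p libraries, against 9, and Y537S versus D538G gave 1 in those libraries, against 2. Without 1 library, counts ranged from 0 to 19 for Y537S versus WT, 1 to 3 for Y537S versus D538G, 1 to 34 for the miR-331-3p response, 1 to 6 for miR-301b-3p in D538G, 1 to 7 in WT and 0 to 0 in Y537S, and 1 to 6 for miR-181c-5p in D538G and 0 to 6 in WT. UQCRB under miR-331-3p in Y537S changed sign to 0.092 with the GC correction and 0.091 with block and GC correction, and NDUFA4 under miR-301b-3p in WT was called at 0.198 with block and GC correction. Of 1337 alternative values for 100 values of named genes, 1143 kept direction and call, 161 lost the call, 30 gained it and 3 changed sign. The causes were not tested. With 2 clones a group, small changes are not detectable at this precision.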
